A study of Paracentrotus lividus with 19 samples.

Results

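WNT2 and FGFRL1 are a Wnt ligand gene and an FGF receptor-like gene of the sea urchin Paracentrotus lividus, followed here across whole embryos treated with metal oxide particles or metal salts. They are represented by 3 of the 63389 features of the deposited count table, found by their names. WNT2 is 1 feature, and FGFRL1 is 2 contigs, FGFRL1.1.2 and FGFRL1.2.2. The first digit of the suffix numbers the contig and the last gives how many contigs carry the name. Both genes were chosen from their rise with ZnSO4 over control in these same libraries, so that contrast is described below without a test. All 3 features passed the filter on low counts, as did 62865 features in all.

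Embryos were harvested for poly(A) RNA 24 h after fertilization, and 5 groups of libraries were made. They were exposed to ZnO particles (3 libraries), to the zinc salt ZnSO4 (4), to Fe2O3 particles (4), to the iron salt FeCl3 (4), or were left as unexposed controls (4). For ZnO the labels state a concentration of 1e-05 M, and 0.8 mg of zinc per L. For Fe2O3 they state 5e-05 M, and 4 mg of iron per L, with each salt at an equivalent metal concentration. Read as masses of metal, the mass figures do not match the molar ones. Read as masses of the oxide, they would match the molar concentration of metal. Each library belongs to a set named F1 (9 libraries), F2 (5) or F3 (5). F1 held a pair of libraries per treatment except for ZnO, which had 1, and F2 and F3 held 1 library of every treatment. What a set is and whether its libraries were separate cultures is not in the labels, so the p-values reflect the spread among these libraries, which could be technical.

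Wnt proteins are secreted ligands that bind Frizzled receptors at the cell surface, and in the canonical branch of the pathway they stabilise beta-catenin through Dishevelled. In sea urchin embryos beta-catenin in vegetal nuclei specifies endoderm and mesoderm, and secreted Frizzled-related proteins (SFRP) can bind Wnt ligands outside the cell. FGF receptors are membrane tyrosine kinases that signal through the adaptor GRB2 and the small GTPase RAS, and in this species FGF signalling takes part in gastrulation and in forming the larval skeleton. FGFRL1 resembles an FGF receptor outside the cell but lacks the kinase domain inside it. As no sequence or annotation was used, the names rest on the deposited table alone.

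Library totals ran from 24438369 to 32801015 counts. WNT2 had at least 1261 counts in every library, FGFRL1.1.2 at least 423 and FGFRL1.2.2 at least 552. The lowest of these, in the F2 Fe2O3 library, corresponded to 16.55 CPM (counts scaled to library size), with a 95% exact Poisson interval of 15.0 to 18.2 that covers counting error only. All CPM values are scaled by TMM. Markers of endoderm, ectoderm, skeleton, cilia, apical plate and pigment cells were detected in these embryos, among them the spicule matrix feature SM37.1.2 (at least 7282 counts) and the gut feature ENDO16.1.3 (at least 1630), and no feature carried a name of the muscle list. The pair of F1 ZnSO4 libraries stood apart from the other 5 zinc libraries. The summed level of the 3 apical plate features was 94.7 and 98.6 CPM in that pair, against 9.19 to 20.8 CPM in the other zinc libraries and 68.7 to 99.5 CPM in iron and control libraries. The summed level of the 6 endoderm features was 309 and 334 CPM in the pair, against 956 to 1628 CPM in the other zinc libraries. Several fitted differences of the members and of the FGFR contigs are therefore also given without the pair, a setting added after the data had been seen. Tests of whether a difference depended on the set, correlations and calls in the marker lists were not repeated without it. Libraries are taken as labelled, and whether the labels of the F1 zinc libraries hold was not tested. The apical plate sum of the F1 ZnO library, 20.7 CPM, lay within the range of the F2 and F3 zinc libraries (9.19 to 20.8 CPM). Its endoderm sum, 956 CPM, lay below theirs (1418 to 1628 CPM) and below the F1 iron and control libraries (1127 to 1302 CPM). The summed level of 23 metallothionein features in the pair, 11480 and 10780 CPM, lay within the range of the other zinc libraries (8652 to 12680 CPM).

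WNT2 stood higher in zinc than in control or iron in every set, but which form of zinc gave the higher level depended on the set. In these bulk samples of whole embryos, a change in the number of cells of a type and a change in RNA per cell cannot be told apart. In F1 its level was 104 CPM in the ZnO library and 69.4 and 70.6 CPM in the ZnSO4 libraries. The other F1 libraries had 51.85 and 52.7 CPM with Fe2O3, 53.4 and 53.3 CPM with FeCl3, and 50.6 and 54.0 CPM in controls. ZnO was thus the highest library of F1, ZnSO4 lay between, and the iron and control libraries overlapped.

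In F2 the order of the zinc forms was the other way round. The level of WNT2 was 91.6 CPM with ZnO, 151 CPM with ZnSO4, 83.9 CPM with Fe2O3, 78.7 CPM with FeCl3 and 79.75 CPM in the control. F3 followed the same order as F2, with 60.65 CPM for ZnO, 106 CPM for ZnSO4, 51.1 CPM for Fe2O3, 45.9 CPM for FeCl3 and 50.1 CPM in the control. Each of the 7 zinc libraries was above every iron and control library of its own set, but not of other sets, since the F2 control was above the ZnSO4 libraries of F1. Of all tested features, 1.13% had such an arrangement in all sets. ZnSO4 and control were used to choose WNT2, so this share is given beside it and nothing is read from it.

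**Figure D1:**
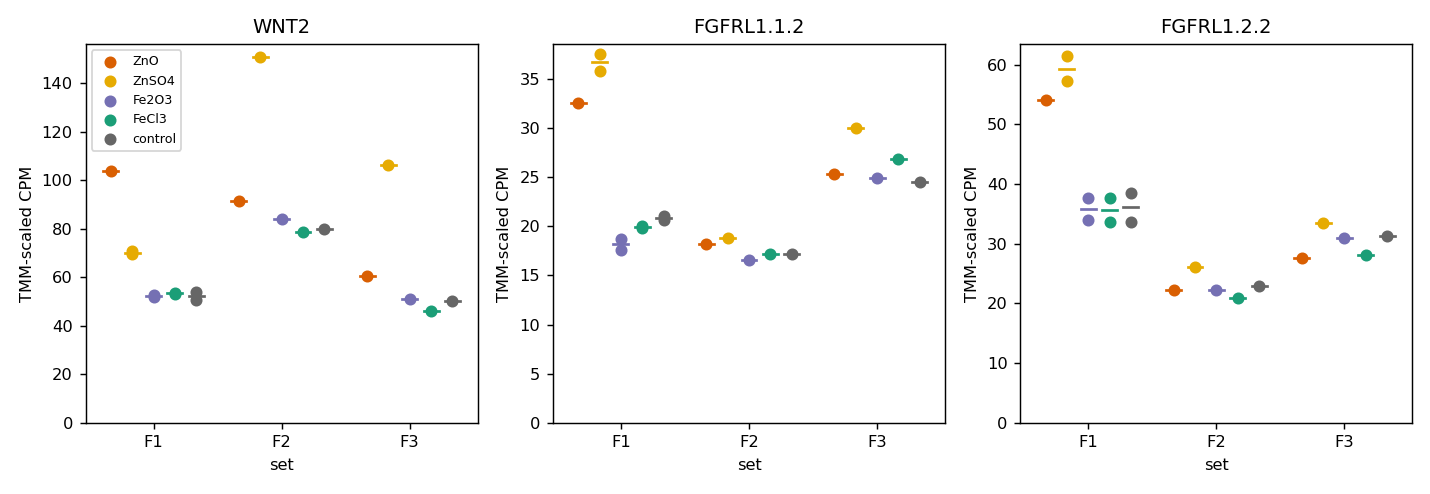
TMM-scaled CPM of WNT2, FGFRL1.1.2 and FGFRL1.2.2 in each of the 19 libraries (points), by set and treatment, with a line at the mean of each set and treatment. WNT2 is highest with ZnO in F1 (104 CPM) and with ZnSO4 in F2 (151 CPM) and F3 (106 CPM). For both FGFRL1 contigs the zinc libraries lie above the rest in F1, from which nothing is read. In F3 the ZnO library does not lie above the rest for FGFRL1.1.2 (25.3 CPM) or FGFRL1.2.2 (27.6 CPM).

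Over all sets, WNT2 averaged 85.3 ± 22.2 CPM with ZnO (SD, n = 3), 99.3 ± 38.4 with ZnSO4, 59.9 ± 16.0 with Fe2O3, 57.8 ± 14.35 with FeCl3 and 58.6 ± 14.2 in controls (SD, n = 4 each). With the mean of its set subtracted from the log2 level, ZnSO4 stood first at 0.48 ± 0.32 and ZnO second at 0.26 ± 0.45, and these neighbours differed by less than their spread. Fe2O3 (-0.20 ± 0.03), control (-0.23 ± 0.04) and FeCl3 (-0.25 ± 0.09) followed and did not differ beyond their spread.

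The difference of ZnO from iron compares groups other than the ZnSO4 and control groups that chose the members, although the fit takes scaling, set terms and spread from all 19 libraries. WNT2 rose with ZnO over the mean of Fe2O3 and FeCl3, by 0.53 ± 0.13 on the log2 scale (SE, edgeR quasi-likelihood test with set as a block, adjusted p = 0.0224). It was the 1 feature called among the 3, where 3.04% of all tested features were called (1908 features, 945 higher and 963 lower). Its ZnO library was above every iron library of its set in each of the 3 sets, as was so for 5.11% of all features. An exact two-sided permutation test within sets, run for each of the 3 features and not adjusted, gave p = 0.0222 for WNT2. That is the smallest p its 45 arrangements allow, and it rests on the same order of libraries.

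The difference was not of 1 size, with 0.97 for F1, 0.17 for F2 and 0.32 for F3, and it differed between the sets (adjusted p = 0.000416, edgeR test of the set-by-treatment terms). Of all features, 2.29% passed that test, in which the F1 pairs are the only source of residual spread. The call over all sets ended without the F1 ZnO library, where the difference was 0.165 (adjusted p = 0.765), and without the F3 FeCl3 library (0.51, adjusted p = 0.0537). It also missed the threshold in DESeq2 (adjusted p = 0.0782) and with the F1 pairs summed (adjusted p = 0.072), and without set F1 it was 0.25 (adjusted p = 0.116). Without the F1 ZnSO4 pair it was 0.54 (adjusted p = 0.000272).

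The comparison of ZnO with control reuses the control libraries that served to choose WNT2, so its p-values, here and for FGFRL1 below, are not independent of that choice. The WNT2 difference was 0.53 ± 0.15 (95% interval 0.22 to 0.84) and did not pass the test (edgeR, adjusted p = 0.0705), where 2.09% of features were called. Within sets it was 0.99 in F1, 0.20 in F2 and 0.28 in F3, which differed between sets (edgeR, adjusted p = 0.00202, with 1.42% of all features passing). The side of the threshold was unstable. The adjusted p was 0.00187 without the F1 ZnSO4 pair (value 0.54) and 0.0162 to 0.0499 without any 1 of the ZnSO4 libraries or the F2 or F3 ZnO library, and without the F1 ZnO library the value was 0.17.

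The difference of ZnSO4 from control, on which WNT2 was chosen, was 0.74 ± 0.14 in the fit (95% interval 0.45 to 1.03). Its values within sets were 0.42 in F1, 0.92 in F2 and 1.08 in F3, and without the F1 ZnSO4 pair the fit gave 1.08. Across all features 5.42% were called in this contrast.

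Set against each other as labelled, particle and salt stood in opposite order for WNT2 in F1 and in the other sets. ZnO minus ZnSO4 was 0.57 in F1, -0.72 in F2 and -0.81 in F3. The set-by-treatment terms had an adjusted p of 2.05e-07 in edgeR (2.47% of all features passed). WNT2 was chosen on these ZnSO4 libraries, so this p and those below for ZnO minus ZnSO4 are not independent of the choice, and the sign in F1 rests on the labels of 1 ZnO library and the ZnSO4 pair that stood apart. Averaged over sets the difference was -0.21 ± 0.15 (95% interval -0.52 to 0.10, adjusted p = 0.88), and 0.0779% of features were called. Without set F1 it was -0.76 (adjusted p = 0.000152) and without the F1 ZnO library -0.56 (adjusted p = 0.0382), while without the F1 ZnSO4 pair it was -0.54 (adjusted p = 0.113).

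**Figure D2:**
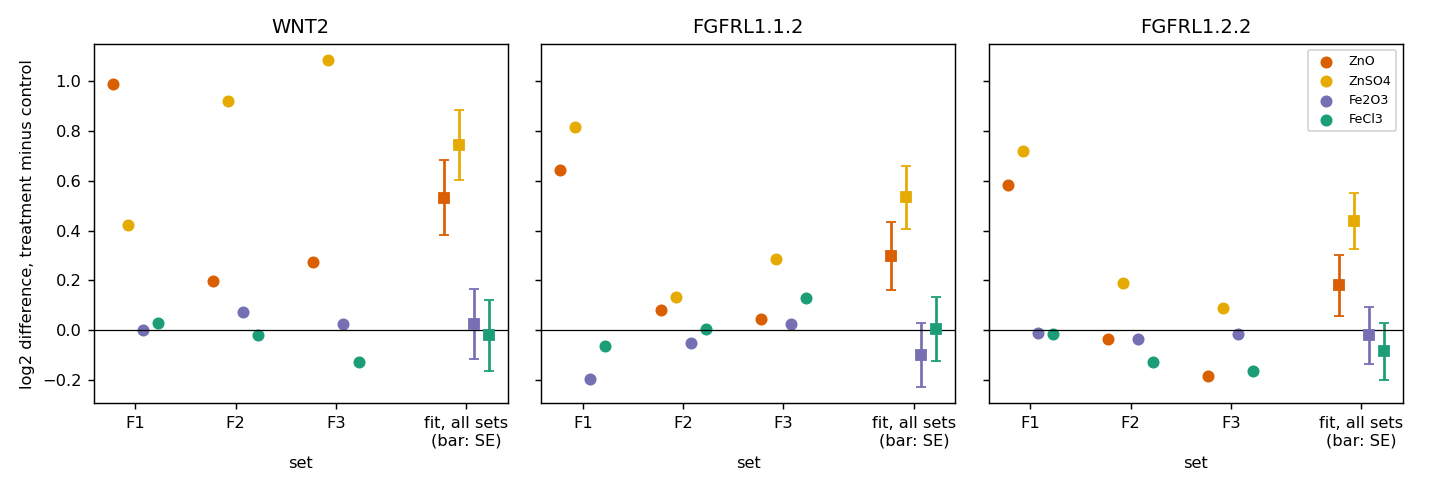
Log2 difference of each treatment from the controls of the same set (points) and the edgeR fit over all sets (squares, bars are SE) for WNT2 and the FGFRL1 contigs. For WNT2, ZnO lies above ZnSO4 in F1 (0.99 against 0.42) and below it in F2 (0.20 against 0.92) and F3 (0.28 against 1.08).

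The iron treatments left WNT2 close to control. Its difference was 0.03 ± 0.14 with Fe2O3, -0.02 ± 0.14 with FeCl3, and 0.05 ± 0.14 for Fe2O3 minus FeCl3 (edgeR, none past the threshold). No feature in the table was called for Fe2O3 over control by edgeR (0%) or by DESeq2 (0), and 1821 features had an unadjusted p under 0.05 in edgeR. For FeCl3 over control 0.027% of features were called, and for Fe2O3 minus FeCl3 0.0732%.

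Both FGFRL1 contigs had higher levels with zinc than with iron or in controls in F1. The level of FGFRL1.1.2 in F1 was 32.6 CPM with ZnO and 35.9 and 37.5 CPM with ZnSO4. With Fe2O3 it was 18.7 and 17.6 CPM, with FeCl3 20.0 and 19.9 CPM, and in controls 20.6 and 21.0 CPM. All zinc libraries of F1 were thus above its iron and control libraries. ZnSO4 and control served to choose the contig, and the F1 ZnSO4 pair stood apart in its markers. The share of all features with this arrangement in F1 was not counted, so nothing is read from it.

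In F2 the same contig lay within a narrow range, at 18.2 CPM with ZnO, 18.85 with ZnSO4, 16.55 with Fe2O3, 17.2 with FeCl3 and 17.2 in the control. In F3 it was 25.3 CPM with ZnO, 30.0 with ZnSO4, 25.0 with Fe2O3, 26.8 with FeCl3 and 24.5 in the control. The F3 ZnO library thus lay between the iron libraries, and ZnSO4 was the highest library of both sets.

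FGFRL1.2.2 showed the same arrangement in F1, from which again nothing is read, with 54.0 CPM for ZnO and 57.3 and 61.45 CPM for ZnSO4. Its other F1 values were 37.7 and 33.9 CPM with Fe2O3, 33.7 and 37.7 CPM with FeCl3, and 33.7 and 38.6 CPM in controls. In F2 the values were 22.3 CPM with ZnO, 26.0 with ZnSO4, 22.3 with Fe2O3, 20.9 with FeCl3 and 22.8 in the control, so ZnO overlapped the iron and control libraries. The F3 library with ZnO was the lowest of its set at 27.6 CPM, beside 33.4 with ZnSO4, 31.04 with Fe2O3, 28.05 with FeCl3 and 31.4 in the control.

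By treatment, FGFRL1.1.2 averaged 25.35 ± 7.2 CPM with ZnO (SD, n = 3), 30.55 ± 8.45 with ZnSO4, 19.5 ± 3.77 with Fe2O3, 21.0 ± 4.10 with FeCl3 and 20.8 ± 3.02 in controls (SD, n = 4 each). With set means removed the order was ZnSO4, ZnO, FeCl3, control and Fe2O3. FGFRL1.2.2 averaged 34.65 ± 17.0 CPM with ZnO (SD, n = 3), 44.5 ± 17.5 with ZnSO4, 31.2 ± 6.55 with Fe2O3, 30.1 ± 7.30 with FeCl3 and 31.6 ± 6.57 in controls (SD, n = 4 each), and its order was ZnSO4, ZnO, control, Fe2O3 and FeCl3. ZnSO4 and ZnO, as neighbours in these orders, differed by less than their spread for either contig. Reads could be divided between contigs of 1 name where their sequences are alike, so the level of each contig is uncertain, and contig lengths were not used, so levels are not compared between contigs or genes.

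Neither FGFRL1 contig was called for ZnO over iron in the fit of all sets. The difference was 0.34 ± 0.12 for FGFRL1.1.2 (edgeR, adjusted p = 0.158) and 0.23 ± 0.11 for FGFRL1.2.2 (adjusted p = 0.374), and the exact within-set permutation test gave p = 0.0667 and p = 0.156. The difference depended on the set for both contigs. FGFRL1.1.2 differed by 0.77 in F1, 0.11 in F2 and -0.03 in F3 (edgeR set-by-treatment terms, adjusted p = 0.00441), and FGFRL1.2.2 by 0.60, 0.05 and -0.09 in the same sets (adjusted p = 0.0262). Without the F1 ZnSO4 pair, FGFRL1.1.2 passed the test over all sets (0.34, adjusted p = 0.0381), and FGFRL1.2.2 did not (0.23, adjusted p = 0.226). Without an F1 Fe2O3 library (replicate 2) the set terms of FGFRL1.2.2 missed the threshold (adjusted p = 0.0647). As F1 holds 1 ZnO library, these set differences rest on that library.

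Against control, ZnO differed by 0.30 ± 0.14 for FGFRL1.1.2 (edgeR, adjusted p = 0.399) and 0.18 ± 0.12 for FGFRL1.2.2 (adjusted p = 0.654). In sets F1, F2 and F3 the FGFRL1.1.2 values were 0.64, 0.08 and 0.04 (adjusted p of the set terms 0.139), and the FGFRL1.2.2 values were 0.58, -0.04 and -0.18 (0.0421). The FGFRL1.2.2 call ended when any of 5 F1 libraries was left out, namely control replicate 1 (adjusted p = 0.169) or either library of the Fe2O3 or ZnSO4 pair (0.0507 to 0.0552). For ZnSO4 over control, the contrast that the contigs were chosen on, the fit gave 0.53 ± 0.13 and 0.44 ± 0.11. Its FGFRL1.1.2 values within sets were 0.81, 0.14 and 0.29, and those of FGFRL1.2.2 were 0.72, 0.19 and 0.09. Without the F1 ZnSO4 pair the fitted values were 0.23 and 0.225, and without the whole of F1 0.21 and 0.13.

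Particle against salt, too, reuses the ZnSO4 libraries whose high values chose FGFRL1, which favours a value below 0 for ZnO minus ZnSO4. The fitted value was -0.24 ± 0.14 for FGFRL1.1.2 (95% interval -0.52 to 0.05) and -0.26 ± 0.12 for FGFRL1.2.2 (-0.51 to -0.0034, before any adjustment), and no dependence on the set was called (edgeR, adjusted p = 0.897 and 0.936). Without the F1 ZnSO4 pair the FGFRL1.1.2 value turned to 0.06. Differences of the iron treatments from control, which reuse the control libraries that served to choose FGFRL1, lay between -0.10 and 0.01 for both contigs. None was called.

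Levels also differed between sets, and the genes did so in different directions. Compared with F1, WNT2 was higher in F2 by 0.60 ± 0.11 (edgeR, adjusted p = 3.55e-05), while FGFRL1.1.2 was lower by 0.47 ± 0.10 (log2 difference -0.47, adjusted p = 0.000321) and FGFRL1.2.2 also lower (-0.89 ± 0.09, adjusted p = 8.24e-09). In F3 minus F1, WNT2 (-0.05) and FGFRL1.1.2 (0.11) did not pass, and FGFRL1.2.2 was lower (-0.48 ± 0.09, adjusted p = 4.87e-05). F3 minus F2 was -0.65 for WNT2, 0.58 for FGFRL1.1.2 and 0.41 for FGFRL1.2.2, all past the threshold. Such differences were common among features, with 70.5%, 69.4% and 64.2% called in F2 minus F1, F3 minus F1 and F3 minus F2.

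The FGFRL1 contigs kept different proportions in different sets. The count of FGFRL1.2.2 over that of FGFRL1.1.2 was 1.60 to 2.01 in F1 (median 1.68), 1.21 to 1.38 in F2 (median 1.33) and 1.05 to 1.28 in F3 (median 1.11). F1 did not overlap F2 or F3, whatever the treatment. On the log2 scale the ratio was lower in F2 than in F1 by 0.44 (difference -0.44, exact permutation test, two-sided, adjusted p = 0.00075) and in F3 than in F1 (difference -0.61, adjusted p = 0.00075), with p adjusted over 3 comparisons and the test added after the data had been seen. Before adjustment each p against F1 was 0.0005, the smallest that 2002 arrangements allow, and it restates the lack of overlap. The test takes libraries as replicates of a set, so its p does not measure spread between sets. The F3 minus F2 difference of -0.17 had an adjusted exact p of 0.0476, and its p lay between 0.0397 and 0.0794 when a library was left out. Contig length cancels in these differences. They do not tell whether the transcripts themselves or the assignment of reads differed. The ratio was not taken for other contigs that share a name. As 64.2% to 70.5% of all features were called between sets, nothing particular to FGFRL1 is read from it.

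**Figure D3:**
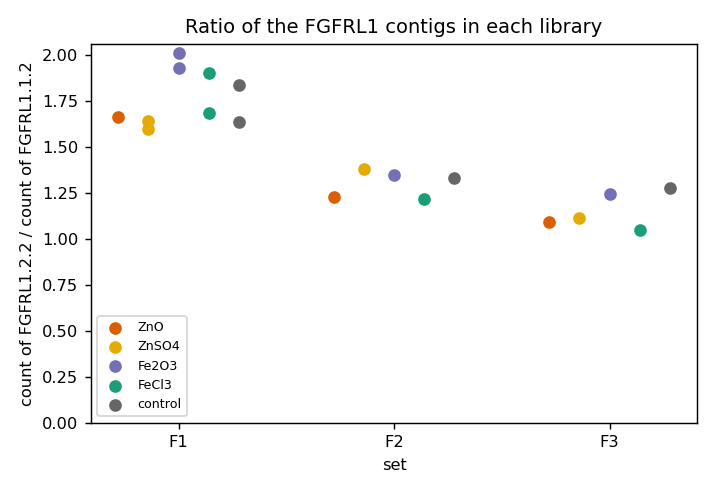
Count of FGFRL1.2.2 divided by count of FGFRL1.1.2 in each of the 19 libraries (points), by set and treatment. The F1 libraries sit between 1.60 and 2.01, above all libraries of F2 (1.21 to 1.38) and F3 (1.05 to 1.28).

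After the set mean was removed, the FGFRL1 contigs varied together over the 19 libraries (Pearson r = 0.935). Each was less close to WNT2 (r = 0.623 for FGFRL1.1.2 and 0.651 for FGFRL1.2.2). These values describe libraries that share treatments and scaling and carry no p.

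Of 509 features with a gene name and sufficient level, the features closest to WNT2 by the same measure were UNIV (r = 0.947), ACTG1 (0.894), SM37.1.2 (0.854), SM41.2.3 (0.834) and CALMB.2.3 (0.827). UNIV is univin, a TGF-beta family ligand, ACTG1 an actin, SM37 a spicule matrix protein and CALMB a calmodulin. Their log2 differences for ZnO over iron were 0.39, 1.18, 0.28, 0.32 and 0.24 in the order given. These are a description, since likeness to WNT2 over the same libraries favours them. Closest to FGFRL1.1.2 were DYNLRB2 (0.927), HSP72.2.3 (0.895), CALM3 (0.871), CYP51 (0.846) and HSP74.2.2 (0.839), and FGFRL1.2.2 shared 4 of these, with ASPP (0.822) in place of CYP51. DYNLRB2 is a dynein light chain, the HSP features belong to the Hsp70 chaperones, CALM3 is a calmodulin and CYP51 a sterol demethylase. For ZnO over iron, again as a description, the log2 difference was 0.14 for DYNLRB2, 0.27 for HSP72.2.3, 0.34 for CALM3, 0.10 for CYP51, 0.57 for HSP74.2.2 and 0.26 for ASPP.

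The Wnt list held 4 features beside WNT2. Of these, CTNB (beta-catenin), DVL (Dishevelled) and SFRP.1.2 and SFRP.2.2, 0 were called by edgeR for ZnO over iron, ZnO over control, ZnSO4 over control or ZnO over ZnSO4, where 0.0779% to 5.42% of all features were called, so nothing particular to the list is read from these counts. Their median difference was -0.04 for ZnO over iron and -0.02 for ZnSO4 over control, against 0.00 and 0.01 over all features. SFRP.1.2 had the highest values, 0.26 ± 0.10 for ZnO over iron (adjusted p = 0.245, 0.21 in F1, 0.25 in F2 and 0.38 in F3) and 0.27 ± 0.11 for ZnSO4 over control (adjusted p = 0.185). DVL had the lowest value for ZnO over iron, -0.19 ± 0.10 (edgeR, adjusted p = 0.433). Within sets the DVL values were -0.35 in F1, -0.07 in F2 and -0.20 in F3. For ZnO over control DVL differed by -0.29 ± 0.11 (adjusted p = 0.2345), and for ZnSO4 over control by 0.02 ± 0.10. Its set terms for ZnO over ZnSO4 passed (edgeR, adjusted p = 0.0236). CTNB ranged from 749.8 to 1162 CPM over all libraries and differed by -0.03 ± 0.05 for ZnO over iron. SFRP.2.2, the lowest feature of the list, ranged from 1.33 to 6.75 CPM and was lower in F2 and F3 than in F1 (log2 differences -1.83 and -1.15, both called by edgeR).

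The FGF receptor contigs were lower with ZnSO4 than in controls. Of the 5 features of the FGF list other than FGFRL1, the 3 FGFR contigs fell, where 1928 of all 62865 features did so and 5.42% were called in either direction, and the adaptor GRB2.S (-0.03) and RAS1 (-0.08) did not pass. FGFR.1.3 fell by 0.43 (log2 difference -0.43 ± 0.09, edgeR adjusted p = 0.00274), FGFR.2.3 by 0.45 (-0.45 ± 0.09, adjusted p = 0.00349) and FGFR.3.3 by 0.62 (-0.62 ± 0.14, adjusted p = 0.0058). The median over the 5 was -0.43, against 0.01 over all features. The contigs share a name and may share reads, so they are not 3 independent genes.

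The ZnSO4 libraries had the lowest FGFR.1.3 level of every set. The share of all features with this arrangement was not counted, so nothing is read from it, here or for the other FGFR contigs. It was 79.9 CPM with ZnO, 73.2 and 77.4 with ZnSO4, 114 and 106 with Fe2O3, 111 and 112 with FeCl3, and 109 and 109.8 in controls of F1. F2 had 109.7 CPM with ZnO, 77.1 with ZnSO4, 94.7 with Fe2O3, 90.7 with FeCl3 and 93.6 in the control, and F3 had 122 CPM with ZnO, 106 with ZnSO4, 135 with Fe2O3, 135 with FeCl3 and 137 in the control. The F1 ZnO library was thus low with the ZnSO4 pair, while the F2 ZnO library was the highest of its set.

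The FGFR.2.3 and FGFR.3.3 contigs had the same order. For FGFR.3.3 in F1, however, ZnO (12.91 CPM) and the higher ZnSO4 library (12.89 CPM) hardly differed. FGFR.3.3 was at 12.9 CPM with ZnO, 12.4 and 12.9 with ZnSO4, 20.4 and 20.8 with Fe2O3, 22.4 and 21.2 with FeCl3, and 20.25 and 21.2 in controls of F1. In F2 it had 17.2 CPM with ZnO, 7.44 with ZnSO4, 13.2 with Fe2O3, 12.7 with FeCl3 and 13.2 in the control, and in F3 20.1 CPM with ZnO, 17.9 with ZnSO4, 24.4 with Fe2O3, 22.7 with FeCl3 and 21.9 in the control. FGFR.2.3 with ZnSO4 had 54.3 and 60.7 CPM in F1, 44.2 in F2 and 76.1 in F3, against 81.55 and 88.8, 53.6 and 97.9 CPM in the controls of these sets. Its ZnO libraries had 63.5 CPM in F1, 68.4 in F2 and 91.9 in F3.

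For ZnSO4 over control the sets did not differ past the threshold for any FGFR contig (adjusted p = 0.573, 0.58 and 0.338, where 3.75% of features passed). FGFR.1.3 differed by -0.54, -0.28 and -0.37 in F1, F2 and F3, and FGFR.3.3 by -0.71, -0.82 and -0.29. With ZnO over iron none of the 5 features was called, and the FGFR contigs changed sign between sets. FGFR.1.3 differed by -0.47, 0.24 and -0.15 (set terms, adjusted p = 0.00397), FGFR.2.3 by -0.35, 0.34 and -0.08 (0.0183) and FGFR.3.3 by -0.71, 0.41 and -0.23 (0.00112). Without the F2 ZnO library FGFR.1.3 and FGFR.3.3 were called lower over all sets (-0.31 and -0.49, adjusted p = 0.0314 and 0.0122), and without the F1 ZnO library their values were 0.01 and 0.07. Without set F1 the ZnSO4 differences of FGFR.1.3, FGFR.2.3 and FGFR.3.3 were -0.33, -0.33 and -0.52 and missed the threshold (adjusted p = 0.0739, 0.103 and 0.114). With the F1 pairs summed they were -0.40, -0.41 and -0.59 (0.0571, 0.0565 and 0.0832), and the calls remained without any 1 library (0.000138 to 0.0294). Without the F1 ZnSO4 pair FGFR.1.3 (-0.355, adjusted p = 0.056) and FGFR.3.3 (-0.59, 0.052) missed the threshold and FGFR.2.3 passed (-0.39, 0.0487).

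**Figure D4:**
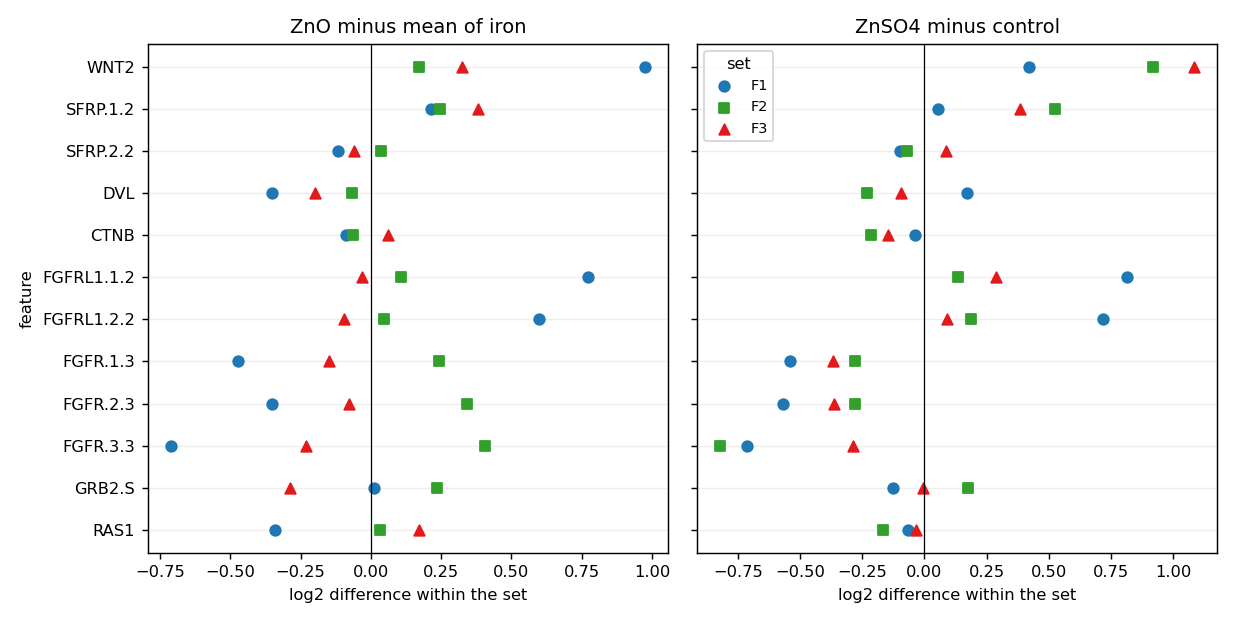
Log2 difference within each set for the 12 features of the Wnt and FGF lists, for ZnO minus the mean of the iron treatments (left) and ZnSO4 minus control (right), with 1 symbol per set. The 3 FGFR contigs lie below 0 in all sets with ZnSO4 (for FGFR.1.3 at -0.54, -0.28 and -0.37), and WNT2 lies above 0 in all sets in both panels.

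Several marker lists differed with zinc in these libraries, and their counts are read beside the 1.5% of all features called higher (945 of 62865) and the 963 called lower for ZnO over iron. The summed level of 23 metallothionein features, genes of metal-binding proteins, was 8652 to 12590 CPM with ZnO and 10780 to 12680 with ZnSO4, against 3207 to 5275 with Fe2O3, 5182 to 7679 with FeCl3 and 3775 to 6842 in controls. All 23 were called higher for ZnO over iron. The summed level of the 12 skeleton features was 1286, 1072 and 1306 CPM with ZnO in F1, F2 and F3. With ZnSO4 it was 1024 to 1037 CPM in F1, 1224 in F2 and 1264 in F3. Iron and control libraries had 914 to 1082 CPM in F1, 949 to 974.7 in F2 and 1068 to 1128 in F3. This sum, like WNT2, was therefore highest with ZnO in F1 and stood above iron and control with both zinc forms in F2 and F3, while for the F1 ZnSO4 pair it lay within their range. Unlike WNT2, the sum was higher in F3 with ZnO (1306 CPM) than with ZnSO4 (1264 CPM). The skeleton list had 5 features called higher and 3 lower for ZnO over iron, but 0 higher and 4 lower by edgeR for ZnSO4 over control, where 2.35% of all features were called higher and 1928 lower.

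The summed endoderm level in F1 was 956 CPM with ZnO and 309 to 334 CPM with ZnSO4, against 1127 to 1302 CPM in iron and control libraries. It was 1628 CPM with ZnO and 1418 with ZnSO4 in F2, against 1250 to 1355 CPM in iron and control, and 1526 CPM with ZnO and 1516 with ZnSO4 in F3, against 1385 to 1447 CPM in iron and control. The sum was thus lower with zinc than in iron and control in F1, but not in F2 or F3. Of its 6 features 0 were called for ZnO over iron, where 3.04% of all features were. For ZnSO4 over control 0 were called higher and 1 lower, where 5.42% of all features were called. The summed level of the 9 ectoderm features in F1 was 2352 CPM with ZnO and 1521 to 1696 with ZnSO4, against 2646 to 3145 CPM in iron and control. In F2 it was 2580 CPM with ZnO and 2278 with ZnSO4, against 2150 to 2297 CPM in iron and control, and in F3 3282 CPM with ZnO and 2429 with ZnSO4, against 2657 to 2729 CPM in iron and control. For ZnSO4 over control 1 ectoderm feature was called higher and 4 lower (median -1.20 over the 9). Of the 36 cilia features 8 were called lower and 0 higher in that contrast, and 3 lower and 0 higher for ZnO over iron. The 3 apical plate features were all called lower for ZnO over iron. The part of these marker lists in the levels of WNT2, FGFRL1 and FGFR was not tested.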

How the data were processed

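The authors deposited 1 table of counts, whole numbers without normalization, for 63389 features in 19 libraries. SAMtools 1.3.1, Trim Galore 0.4.0 and BWA 0.7.12-r1039 were used per the submitters' processing notes. Not given in the sources used here are the assembly, the counting program and its strand setting. Features were kept by filterByExpr on treatment, scaled by TMM and fitted with the edgeR 4.0.16 quasi-likelihood model (R 4.3.3, limma 3.58.1) with terms for treatment and set (residual df 12, prior df 11.1, common dispersion 0.015). Adjusted p-values are Benjamini-Hochberg over all 62865 features, called under 0.05. Set-by-treatment terms used 1 mean per set and treatment (residual df 4). Set was a block because libraries of the same set deviated together (r 0.783 to 0.916 over 52 pairs of libraries of different treatments, and -0.612 to -0.062 over 92 pairs from different sets). Log2 levels used a prior count of 2. F1 pairs differed by more than counting noise (chi-square over df 4.16 to 7.93). The model was tested on simulated data.

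The members and lists were chosen with earlier results of these data known, and GRB2.S was added once names had been seen. Other features named are the Wnt and FGF lists and, per member, the 5 named features with the highest correlation and a mean log2 CPM of at least 1. Set terms other than those of ZnO over iron, the contig ratio test and the setting without both F1 ZnSO4 libraries were added after seeing the data. DESeq2 1.42.0, other scaling and filters, no set term, summed F1 pairs, summed contigs and left-out libraries or sets were tried as alternatives.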

Additional observations from a re-analysis of the deposited data

Results flagged for a closer look

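The WNT2 level of the F2 library lay far from the other libraries of its treatment with Fe2O3 (83.9 CPM) and in controls (79.75 CPM). These were 2 of 12 groups of 4 checked. The cut-off flags about 1 in 20 among independent libraries of 1 level, a rate that does not apply to groups that span sets. Both are F2 libraries, and WNT2 was higher in F2 than in F1 overall.

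The difference of ZnO from iron depended on the set for WNT2 (adjusted p = 0.000416), FGFRL1.1.2 (0.00441) and FGFRL1.2.2 (0.0262), and for the receptor contigs FGFR.1.3 (0.00397), FGFR.2.3 (0.0183) and FGFR.3.3 (0.00112). That of ZnO from control depended on the set for WNT2 (0.00202), FGFRL1.2.2 (0.0421), FGFR.1.3 (0.0301), FGFR.2.3 (0.0311) and FGFR.3.3 (0.0105). That of ZnO from ZnSO4 did so for WNT2 (2.05e-07), FGFR.3.3 (0.00226) and DVL (0.0236). All are edgeR tests of set-by-treatment terms in which each set holds 1 ZnO library. Those against control or ZnSO4 reuse libraries on which WNT2 and FGFRL1 were chosen.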

How the results depend on the processing

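The alternatives were RLE scaling, DESeq2, no or stricter filtering (at least 2 CPM in 4 libraries), no set term, F1 replicates as blocks of their own, F1 pairs summed, FGFRL1 contigs summed, each library or set left out, and, added later, both F1 ZnSO4 libraries left out. Fewer libraries leave less to test, and the cause of changes was otherwise not tested. The set-by-treatment terms could not be refitted without a library that is alone in its set and treatment.

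The F1 replicate numbers do not pair libraries across treatments (correlations of deviations -0.07 to 0.05 over 6 pairs). With them as a replicate block, and so without the F1 ZnO library, WNT2 differed by 0.165 for ZnO over iron (adjusted p = 0.794), FGFRL1.2.2 by -0.02 for ZnO over control, and FGFR.1.3, FGFR.2.3 and FGFR.3.3 by 0.015, 0.12 and 0.075 for ZnO over iron. Called features were then 791 for ZnO over iron, 574 for ZnO over control and 277 for ZnO over ZnSO4. With no set term WNT2 kept 0.54 for ZnO over iron but had an adjusted p of 1, and the called features were 116 for ZnSO4 over control, 56 for ZnO over iron and 30 for ZnO over control.

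WNT2 for ZnO over iron was 0.53 with the F1 pairs summed, 0.54 in DESeq2 and 0.25 without set F1, none past the threshold, and 0.165 to 0.69 with a library left out. For ZnO over control it was 0.68 without set F2 (adjusted p = 0.0474), 0.54 without both F1 ZnSO4 libraries (passing) and 0.17 to 0.695 with a library left out. For ZnO over ZnSO4 it was -0.76 without set F1 (passing), 0.014 without F2, 0.039 without F3 and -0.56 to -0.041 with a library left out. For ZnSO4 over control it was 1.08 without both F1 ZnSO4 libraries. Without set F3 its difference for FeCl3 over control was 0.011, and with a library left out -0.039 to 0.024. For Fe2O3 over control that range was -0.00101 to 0.042, and for F3 minus F1 -0.19 to 0.086.

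For FGFRL1.1.2 the ZnSO4 difference from control was 0.23 without both F1 ZnSO4 libraries and 0.21 without set F1, and for FGFRL1.2.2 it was 0.225 and 0.13. Without both F1 ZnSO4 libraries FGFRL1.1.2 was 0.34 for ZnO over iron (passing) and 0.057 for ZnO over ZnSO4. Its difference for FeCl3 over control was -0.041 without set F3, -0.041 with the contigs summed and -0.072 to 0.058 with a library left out. Summed contigs gave -0.235 for F3 minus F1 (adjusted p = 0.0233) and -0.0054 for Fe2O3 minus FeCl3. FGFRL1.2.2 differed by -0.028 for ZnO over iron and -0.12 for ZnO over control without set F1. With a library left out its ranges were -0.021 to 0.296 for ZnO over control, -0.098 to 0.049 for Fe2O3 over control and -0.0053 to 0.134 for Fe2O3 minus FeCl3.

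The F1 value minus the mean of F2 and F3 ranged, with a library left out, from -0.056 to 0.025 for FGFRL1.1.2 in ZnO over ZnSO4, from 0.603 to 0.802 for FGFRL1.2.2 in ZnO over control and from 0.588 to 0.671 in ZnO over iron. Without set F1 the FGFR contigs differed by 0.0504, 0.135 and 0.087 for ZnO over iron, and with a library left out by -0.31 to 0.015, -0.22 to 0.12 and -0.49 to 0.074.

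Called features for ZnSO4 over control (3405) were 1707 with the F1 pairs summed and 1981 without set F1. For ZnO over control (1311) they were 837 with the F1 pairs summed and 2191 without both F1 ZnSO4 libraries, and 651 to 1591 with a library left out, the lowest without the F1 ZnO library. For ZnO over iron (1908) that range was 882 to 2164, again lowest without the F1 ZnO library. For ZnO over ZnSO4 (49) the count was 191 in DESeq2, 1 with the F1 pairs summed, 300 without set F1, 83 without F3 and 4 to 426 with a library left out. Over all alternatives it ran from 0 to 29 for FeCl3 over control and from 0 to 54 for Fe2O3 minus FeCl3. Reads per feature limited the members little, since the lowest count was 423.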
